A study of Mus musculus with 13 samples.

Results

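The nuclear receptor PPARα, encoded by Ppara, and 8 of its targets in fasted liver, Cyp4a10, Cyp4a14, Cyp4a31, Cyp4a32, Acot1, Pdk4, Cpt1a and Ehhadh, were taken by symbol from an RNaseq count table of 53392 mouse genes. All 9 genes were found, and 9 of 9 passed the filter on low counts that 14317 genes passed. Whole-liver RNA came from 13 adult female mice of 8 to 14 weeks, pair-fed a Lieber-DeCarli liquid diet with 28% of calories from ethanol (Etoh) for 4 weeks. All mice carried Albumin-Cre and a Rosa26-loxP-stop-loxP-rtTA allele, so that doxycycline (Dox) can act on rtTA in hepatocytes. ASAH+ mice also carried TRE-ASAH1, a Dox-inducible transgene for acid ceramidase, the lysosomal enzyme that splits ceramide, and ASAH− littermates lacked it. The groups were 4 ASAH− mice on Etoh with Dox at 200 mg/l (ASAH− Etoh-Dox), 5 ASAH+ mice on the same diet (ASAH+ Etoh-Dox) and 4 ASAH+ mice on Etoh without Dox (ASAH+ Etoh). No group without ethanol was among these samples, and the study's methods do not say whether the mice sampled for RNA had been fasted.

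PPARα is a fatty acid sensor that is abundant in hepatocytes. It binds DNA together with a retinoid X receptor, and fatty acids released from adipose tissue during a fast activate it. Its targets move fatty acids into mitochondria and peroxisomes, oxidise them there or at their last carbon in the endoplasmic reticulum, and spare glucose by slowing pyruvate oxidation.

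Libraries held 17819486 to 35358711 counts. Levels are given in CPM, the counts-per-million of the library total after TMM scaling. Asah1 was at 49.3 ± 6.77 CPM (SD, n = 4) in ASAH− Etoh-Dox mice. It was at 12745 ± 2793 CPM (SD, n = 5) in ASAH+ Etoh-Dox mice and at 46.5 ± 1.70 CPM (SD, n = 4) in ASAH+ Etoh mice. This fits the groups as the sample descriptions and induction labels give them. For ASAH+ samples the titles name the reverse of this Dox treatment, and only their replicate numbers were used. All 7 hepatocyte markers had counts in every group, with summed levels of 87585 to 137830.0 CPM per mouse. Fat tissue markers summed to at most 0.144 CPM, with Lep at 0 in every mouse, and kidney tubule markers to at most 0.434 CPM, with Umod and Slc22a6 at 0. Pancreas markers summed to 5.36 to 11.6 CPM, with Pnlip at 0 in every mouse and 1 of 5, Cela1, above the filter on low counts.

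The Cyp4a genes lie side by side on chromosome 4. In GENCODE M21 on GRCm38, Cyp4a14 is at chr4:115486200-115496142 on the minus strand, and Cyp4a10 at chr4:115518264-115533649, Cyp4a31 at chr4:115563649-115579015 and Cyp4a32 at chr4:115600969-115621602 on the plus strand. Ppara is at chr15:85734983-85802819 (plus), Acot1 at chr12:84009490-84018371 (plus), Pdk4 at chr6:5483351-5496309 (minus), Cpt1a at chr19:3322334-3385733 (plus) and Ehhadh at chr16:21761287-21787807 (minus).

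Cyp4a10, Cyp4a31 and Cyp4a32 are close copies, and how well a read can tell them apart bears on every value given for them. The coding sequences of Cyp4a10 and Cyp4a31 were 96.6% identical, with 52 differing positions over 1530 bases, those of Cyp4a10 and Cyp4a32 were 97.2% identical (43 differing positions), and those of Cyp4a31 and Cyp4a32 were 96.0% identical (61). Cyp4a14 was 74.8 to 75.1% identical to each of them. The window shown is coding positions 162 to 261, which run from exon 1 into exon 2 in each gene (the intron between them is left out). It has 13 of the 77 positions at which the 3 copies are not all alike, printed in capitals. It lies at chr4:115518483-115519701 for Cyp4a10, chr4:115563878-115565081 for Cyp4a31 and chr4:115601136-115602331 for Cyp4a32 (GRCm38, plus strand).
Cyp4a10: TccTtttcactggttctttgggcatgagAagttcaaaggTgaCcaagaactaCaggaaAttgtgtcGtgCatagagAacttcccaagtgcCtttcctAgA
Cyp4a31: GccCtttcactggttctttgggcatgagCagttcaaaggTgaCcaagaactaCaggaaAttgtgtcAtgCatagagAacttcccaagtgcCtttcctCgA
Cyp4a32: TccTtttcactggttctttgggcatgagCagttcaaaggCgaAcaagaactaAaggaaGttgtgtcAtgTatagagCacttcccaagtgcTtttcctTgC
A read over the whole window differs between the copies, whereas 49 of 1431 windows of the same length had no difference at all. Of the 31-base words in the transcripts, 62.8% of those of Cyp4a32, 44.9% of Cyp4a10 and 32% of Cyp4a31 also occurred in another gene. The fraction was 22.8% for Acot1, mainly through its neighbour Acot2, whose coding sequence was 85.5% identical, and at most 2.69% for the other members. The counting divides such reads by estimated abundance, so levels of the rarer copies Cyp4a31 and Cyp4a32 are uncertain.

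Promoter sequences of 6 members were found in the RefSeq table (GRCm38.p6): Ppara, Cyp4a32, Acot1, Pdk4, Cpt1a and Ehhadh. The 250 bases before each start site were searched on both strands for the PPAR response element, a direct repeat of AGGTCA with 1 base between its copies. The strict form AGGTCANAGGTCA was in 0 of 6 member promoters and in 0.0335% of all 32851 promoters in the table, and the looser AGGNCANAGGNCA in 0 of 6 and in 0.338%. A single AGGTCA was in 1 of 6, that of Cpt1a, and in 14% of all. The absence of these letters from so short a window says nothing of the receptor's binding elsewhere. The 5 letters CCAAT, a search chosen after the sequences had been seen, were in 5 of 6 member promoters (all but Ppara) and in 33.8% of all promoters. The stretches upstream of Acot1 (chr12:84009372-84009485, plus strand) and Ehhadh (chr16:21787851-21787964, minus strand) are shown because these genes varied most closely together between mice, with CCAAT or its reverse complement in capitals. That of Cpt1a (chr19:3323171-3323271, plus strand) is shown for its single AGGTCA, in capitals as the reverse complement. The stretches of Acot1 and Ehhadh run from 130 to 17 bases before the start and that of Cpt1a from 130 to 30 bases before it. None overlaps an exon. The RefSeq start used for Cpt1a lies downstream of its GENCODE start, so this stretch is inside the GENCODE span given above.
Acot1: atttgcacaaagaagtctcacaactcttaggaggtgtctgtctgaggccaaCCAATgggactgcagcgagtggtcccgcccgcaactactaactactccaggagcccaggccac
Ehhadh: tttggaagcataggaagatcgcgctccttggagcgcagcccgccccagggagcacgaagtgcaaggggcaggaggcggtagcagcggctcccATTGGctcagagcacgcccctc
Cpt1a: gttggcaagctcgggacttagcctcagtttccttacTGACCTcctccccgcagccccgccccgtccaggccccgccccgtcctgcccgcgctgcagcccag

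Members differed widely in level. Per kilobase of transcript, the median over the 13 mice was 559 CPM per kb for Cyp4a14, 436 for Cyp4a10, 160.0 for Cpt1a, 131 for Ehhadh, 48.9 for Ppara, 27.6 for Acot1, 12.1 for Cyp4a32, 7.31 for Pdk4 and 6.69 for Cyp4a31. The order was shared by nearly all mice. Cyp4a14 was above Cyp4a10 in 12 of 13 mice, Cpt1a above Ehhadh in 11 of 13, and Cyp4a32 above Pdk4 in 12 of 13. Pdk4 was above Cyp4a31 in 7 of 13 mice only, so these neighbours were not separated, and every other step held in 13 of 13. Of the counts given to the 3 Cyp4a copies, Cyp4a10 took 94.0 to 97.0% in each mouse, Cyp4a31 took 1.53 to 2.66% and Cyp4a32 took 1.5 to 3.31%. Acot1 took 75.6 to 87.5% of the counts given to Acot1 and Acot2.

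None of the 9 transcripts passed the test in any comparison, and the mice of the groups overlapped for each of them. The first comparison varied the genotype (ASAH+ Etoh-Dox against ASAH− Etoh-Dox), and the second the Dox in the diet of ASAH+ mice (ASAH+ Etoh-Dox against ASAH+ Etoh). The third set the controls side by side (ASAH− Etoh-Dox against ASAH+ Etoh). In the second, Dox and the induction of Asah1 changed together, and cannot be told apart. In the third, genotype and Dox differed together, and cannot be told apart either. By the edgeR quasi-likelihood test (Benjamini-Hochberg adjusted over all genes tested), 0 of 9 members had an adjusted p under 0.1 in each of the 3 comparisons, against a background of 0.014% of all genes tested. At an unadjusted p under 0.05 the count was also 0 of 9 each time, where 2.86%, 7.29% and 9.18% of all genes passed in the first, the second and the third comparison. No member had groups that did not overlap, which 0.887%, 2.58% and 5.5% of all genes had. DESeq2 and limma-voom called 0 of 9 as well. At an unadjusted p under 0.05, DESeq2 fitted on all mice and voom each had 1 of 9 members in the second comparison, Cyp4a14, where 7.71% and 6.91% of the genes that passed the count filter had such a p. DESeq2 fitted on the compared groups alone had 1 of 9 in each comparison (Cyp4a32, Ppara and Cyp4a14 in turn), beside 2.49%, 8.06% and 9.09% of these genes. With edgeR on the compared groups alone 1 of 9 had such a p between genotypes, Cyp4a32, beside 2.42% of all genes, and 1 of 9 between the controls, Cyp4a14, beside 9.14%. Cyp4a32 and Ppara were lower in ASAH+ Etoh-Dox mice. Cyp4a14 was lower in the Dox-fed group of the second and of the third comparison, where more than Dox differed. The comparisons share groups, so their values are not independent of each other. The labels do not say whether the mice shared cages or litters, and p-values measure only the spread between these mice.

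**Figure D1:**
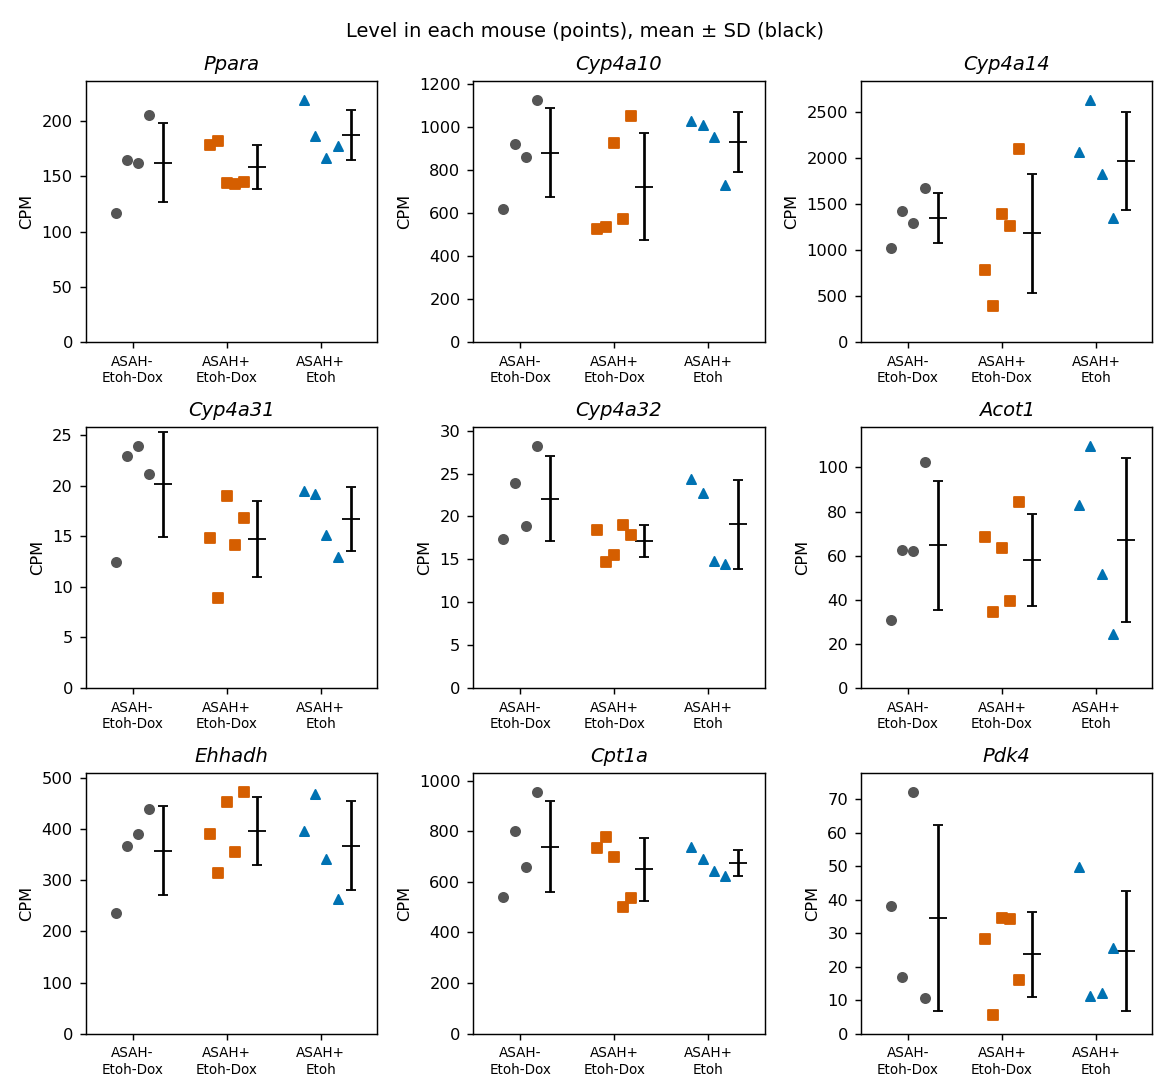
Level of each of the 9 genes in every mouse, in CPM on axes that start at 0, by group; each point is 1 mouse and the bar is the group mean with its SD. The 3 groups overlap for every gene, and Cyp4a14 ranges from 390.0 to 2631 CPM.

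Of the 9 genes, Ppara, the receptor, spread least between mice. It stood at 117, 162, 164 and 205 CPM in the ASAH− Etoh-Dox mice, at 143, 144, 145, 179 and 182 CPM in the ASAH+ Etoh-Dox mice and at 167, 177, 186 and 219 CPM in the ASAH+ Etoh mice. The groups overlapped, with 3 of the ASAH+ Etoh-Dox mice below every ASAH+ Etoh mouse. The group means were 162 ± 35.9 (SD, n = 4), 158 ± 20.1 (SD, n = 5) and 187 ± 22.5 CPM (SD, n = 4). Between genotypes on Dox the interval of the log2 fold change ran from -0.34 to 0.27. Between ASAH+ mice with and without Dox the log2 fold change was -0.24 (SE 0.14, 95% interval -0.55 to 0.06, edgeR quasi-likelihood test, Benjamini-Hochberg adjusted p = 0.744), with an exact two-sided permutation p of 0.0952. A 2-fold change of Ppara lies outside these intervals in all 3 comparisons.

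Among the fatty acid ω-hydroxylases, which oxidise fatty acids at their last carbon, Cyp4a14 spread the most. It was at 1022, 1292, 1425 and 1673 CPM in ASAH− Etoh-Dox mice, at 390.0, 780.4, 1266, 1396 and 2098 CPM in ASAH+ Etoh-Dox mice and at 1346, 1834, 2068 and 2631 CPM in ASAH+ Etoh mice. The ASAH+ Etoh-Dox group held the mice with the lowest levels of all 13 and also 1 mouse above 3 of the ASAH+ Etoh mice. It thus overlapped both other groups but did not reach the top of their range, 2631 CPM. Its mean of 1186 ± 648 CPM (SD, n = 5) compared with 1969.8 ± 534 CPM (SD, n = 4) in ASAH+ Etoh mice, a log2 fold change of -0.73 (SE 0.38, 95% interval -1.55 to 0.09). This did not pass the edgeR quasi-likelihood test (Benjamini-Hochberg adjusted) (p = 0.0753, adjusted p = 0.704, two-sided exact permutation p = 0.127). It was lower in 16 of 20 pairs of mice across the groups, and it was the largest difference of the 9 genes in that comparison. Against ASAH− Etoh-Dox mice, at 1353 ± 271 CPM (SD, n = 4), the log2 fold change was -0.19 (SE 0.38, interval -1.01 to 0.63), and without ASAH+ Etoh-Dox mouse 2, the lowest, it was 0.03. Between the controls it was -0.54 (SE 0.40, interval -1.41 to 0.33), with ASAH− Etoh-Dox mice lower in 14 of 16 pairs and an exact permutation p of 0.0857.

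Transcripts of Cyp4a10, which codes for another ω-hydroxylase, spanned a narrower range. Its levels were 619, 861, 919 and 1124 CPM in ASAH− Etoh-Dox mice, 524, 534, 574, 928 and 1050.4 CPM in ASAH+ Etoh-Dox mice and 729, 956, 1009 and 1027 CPM in ASAH+ Etoh mice. Of the ASAH+ Etoh-Dox mice, 3 lay below every mouse of the other groups and 2 lay among them. The log2 fold change was -0.29 (SE 0.23, 95% interval -0.78 to 0.21) against ASAH− Etoh-Dox and -0.37 (SE 0.23, interval -0.86 to 0.13) against ASAH+ Etoh, with exact two-sided permutation p of 0.302 and 0.143. The value against ASAH− Etoh-Dox was -0.45 without ASAH+ Etoh-Dox mouse 5 and -0.15 without ASAH− Etoh-Dox mouse 4.

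The rare copies gave the smallest unadjusted p between genotypes. Cyp4a32 ranged from 17.3 to 28.2 CPM in ASAH− Etoh-Dox mice and from 14.7 to 19 CPM in ASAH+ Etoh-Dox mice, a log2 fold change of -0.37 (SE 0.18, edgeR p = 0.0574, adjusted p = 0.9996, exact permutation p = 0.103). Cyp4a31 ranged from 12.5 to 23.9 and from 8.89 to 19 CPM in the same groups, a log2 fold change of -0.45 (SE 0.22, edgeR p = 0.0592, adjusted p = 0.9996, exact permutation p = 0.159). Each was lower in 16 of 20 pairs of mice, and the groups overlapped. The value of Cyp4a32 was -0.46 without ASAH− Etoh-Dox mouse 1 and -0.23 without ASAH− Etoh-Dox mouse 4. In ASAH+ Etoh mice Cyp4a32 ranged from 14.4 to 24.4 CPM and Cyp4a31 from 13 to 19.5 CPM, and both overlapped the other groups. With 225 to 597 counts per mouse for Cyp4a31 and 250 to 789 for Cyp4a32, and with shared words as above, a misassigned part of the Cyp4a10 reads would weigh on these values, which was not tested. Between the controls the log2 fold change was 0.27 (SE 0.23) for Cyp4a31 and 0.21 (SE 0.19) for Cyp4a32.

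Acot1, a cytosolic thioesterase that frees fatty acids from coenzyme A, varied more within groups than between them. It stood at 30.9, 62.3, 62.7 and 103 CPM in ASAH− Etoh-Dox mice, at 34.3, 39.6, 63.7, 68.3 and 84.1 CPM in ASAH+ Etoh-Dox mice and at 24.3, 51.6, 83.1 and 109.7 CPM in ASAH+ Etoh mice. The lowest and the highest of all 13 were both in the ASAH+ Etoh group, and the 3 means lay between 58.0 and 67.2 CPM. The group explained 0.573% of the variance of its log2 level, against a median of 14.4% over all genes tested. The log2 fold changes were -0.16 (SE 0.44), -0.21 (SE 0.44) and -0.06 (SE 0.46) in the first, the second and the third comparison, with intervals of -1.11 to 0.79, -1.16 to 0.74 and -1.06 to 0.95, each of which holds a 2-fold fall.

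Ehhadh, the bifunctional enzyme of peroxisomal β-oxidation, was the single member above 0 on the log2 scale in both comparisons of ASAH+ Etoh-Dox mice. Its levels were 237, 366, 391 and 439 CPM in ASAH− Etoh-Dox mice, 314, 355, 389.9, 453 and 473 CPM in ASAH+ Etoh-Dox mice and 264, 342, 397 and 468 CPM in ASAH+ Etoh mice. The 3 groups covered almost the same range apart from 1 low mouse in each control group. The log2 fold change was 0.15 (SE 0.19, 95% interval -0.26 to 0.56) between genotypes and 0.11 (SE 0.19, interval -0.30 to 0.52) with and without Dox.

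Cpt1a, which makes acylcarnitine at the outer mitochondrial membrane and so sets the entry of long-chain fatty acids, lay at 542, 659, 801 and 955 CPM in ASAH− Etoh-Dox mice, 502, 534, 699.6, 735 and 778 CPM in ASAH+ Etoh-Dox mice and 621, 645, 691 and 736 CPM in ASAH+ Etoh mice. The ASAH+ Etoh mice lay inside the range of each Dox-fed group. The log2 fold change was -0.19 (SE 0.16, 95% interval -0.53 to 0.16) between genotypes and -0.05 (SE 0.16, interval -0.40 to 0.30) with and without Dox, the narrowest intervals of the 8 targets.

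Pdk4, the kinase that switches off pyruvate dehydrogenase, was the least steady of the 9. It stood at 10.8, 17.1, 38.1 and 72.1 CPM in ASAH− Etoh-Dox mice, at 5.47, 16.1, 28.1, 34.2 and 34.5 CPM in ASAH+ Etoh-Dox mice and at 11.2, 12.1, 25.5 and 49.6 CPM in ASAH+ Etoh mice. High and low mice were found in every group, 13.2-fold apart at the extremes. The log2 fold changes of -0.54 (SE 0.65), -0.05 (SE 0.66) and 0.49 (SE 0.70) in the 3 comparisons carry intervals of -1.97 to 0.89, -1.5 to 1.39 and -1.03 to 2.01, so that a 2-fold fall lies inside all 3 of them and a 2-fold rise inside the last 2. Without ASAH− Etoh-Dox mouse 3, the highest, the difference between genotypes was 0.11.

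**Figure D2:**
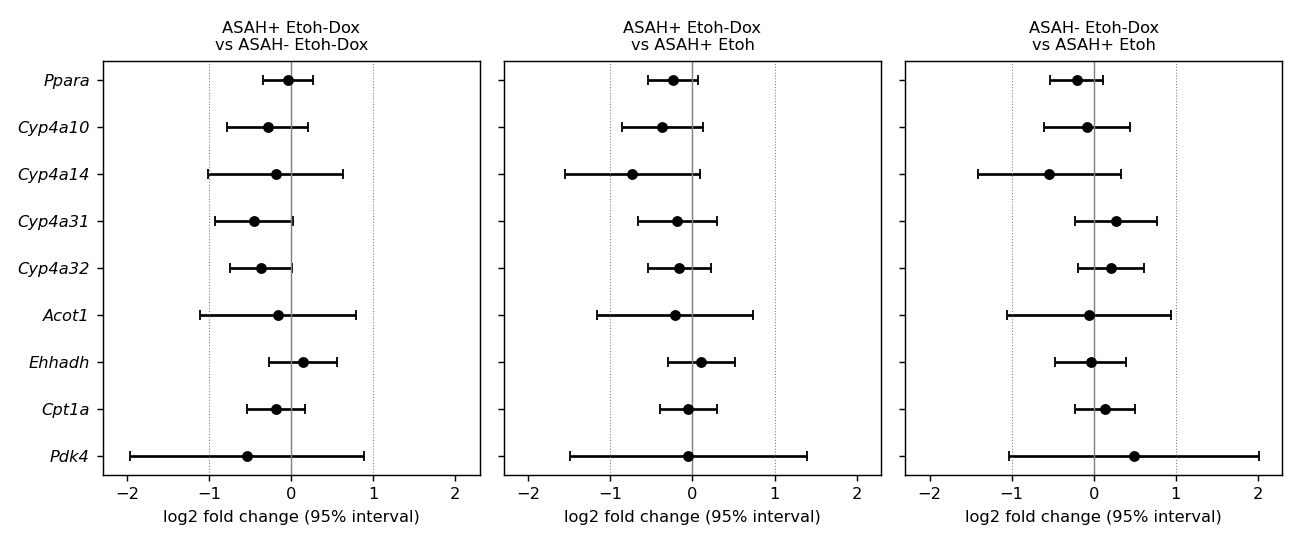
Log2 fold change of each gene in the 3 comparisons, with its 95% interval from edgeR's quasi-likelihood fit; the dotted lines mark a 2-fold change. Every interval includes 0, and those of Cyp4a14, Acot1 and Pdk4 pass a 2-fold line in each comparison.

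Across the 9 genes, 6 had intervals inside a 2-fold change in each comparison, and the exceptions were Cyp4a14, Acot1 and Pdk4 each time. The log2 fold change was below 0 for 8 of 9 members between genotypes and for 8 of 9 with and without Dox, Ehhadh being the other, and for 5 of 9 between the controls. Of all genes tested, 50.7%, 47% and 46.8% were below 0. The members' median log2 fold change was -0.19, -0.18 and -0.04, beside a median of 0.00, 0.01 and 0.02 over all genes, and beside a median SE of the members of 0.22, 0.22 and 0.23. Of 36 pairs of these genes, 9 were correlated between mice, so the signs are not 9 separate observations. Between genotypes the hepatocyte markers were below 0 as well, 7 of 7 with a median of -0.24, and so were 6 of 6 Kupffer cell, 6 of 6 endothelial, 6 of 6 stellate cell and 5 of 5 cholangiocyte markers. With and without Dox 5 of 7 hepatocyte markers were below 0, with a median of -0.12, beside 5 of 6 endothelial, 4 of 5 cholangiocyte, 2 of 6 stellate cell and 0 of 6 Kupffer cell markers, whose median was 0.31. Between the controls 1 of 7 hepatocyte markers, with a median of 0.08, and 4 of 6 endothelial markers were below 0, and 0 of 6 Kupffer cell, 0 of 6 stellate cell and 0 of 5 cholangiocyte markers were. The part of these markers in the members' values was not tested.

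The group explained 30.1% of the variance of the log2 level for Cyp4a14, 23.3% for Cyp4a31, 23.3% for Cyp4a32, 23.1% for Cyp4a10 and 22.0% for Ppara, each above the median of 14.4% over all genes tested, and 8.56% for Cpt1a, 6.08% for Ehhadh and 3.76% for Pdk4, below it. Most of the variance thus lay within groups, for the members as for the median gene. The within-group SD on the log2 scale was 1.12 for Pdk4, above 98.3% of all genes tested, 0.736 for Acot1 (95.2%) and 0.649 for Cyp4a14 (93.1%). It was 0.385 for Cyp4a31, 0.382 for Cyp4a10, 0.326 for Ehhadh, 0.298 for Cyp4a32, 0.271 for Cpt1a and 0.233 for Ppara, beside a median of 0.240 over all genes. The receptor was above 48.3% of all genes, and Pdk4, Acot1 and Cyp4a14 were among the most variable genes in these livers.

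**Figure D3:**
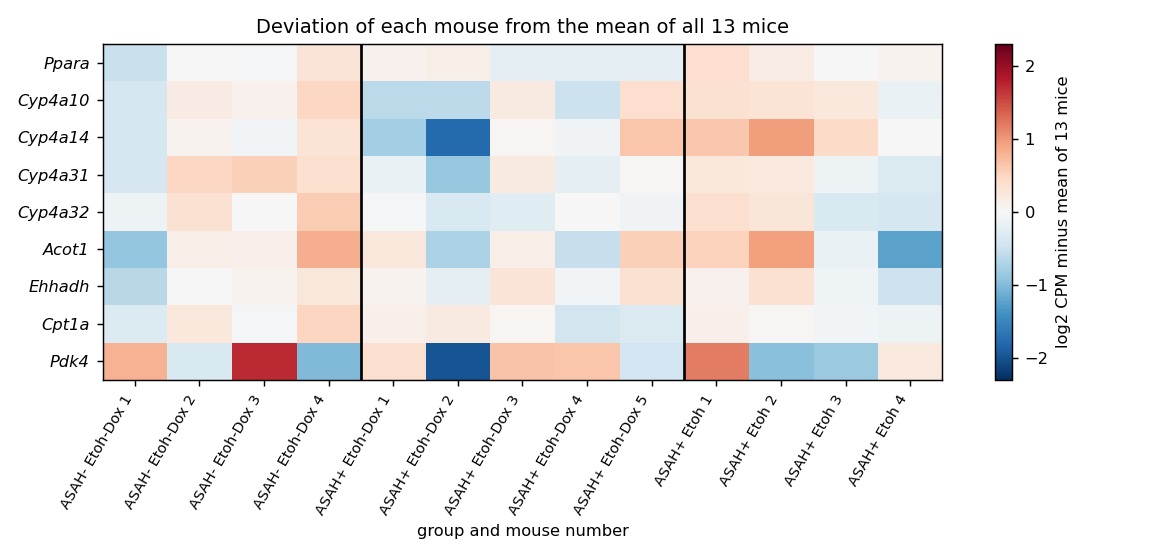
Deviation of each gene from its mean over all 13 mice, in log2 CPM, with 1 row per gene and 1 column per mouse. ASAH− Etoh-Dox mouse 1 is below that mean for 8 of 9 genes, the exception being Pdk4, and ASAH+ Etoh-Dox mouse 2 carries the lowest Cyp4a14.

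Some pairs of members varied together from mouse to mouse, and Pdk4 passed the test with no other member. No share of correlated pairs among all genes is given here, so the counts below have no background beside them. Of 36 pairs of members, 30 had a positive Pearson correlation of log2 CPM over the 13 mice, with a median r of 0.44, and 9 pairs passed a two-sided permutation test with 100000 resamples at an adjusted p under 0.05 (Benjamini-Hochberg over the 36 pairs). The closest pair was Acot1 and Ehhadh, with r = 0.903 (Spearman's rho 0.912, permutation test, adjusted p = 0.00072), r = 0.954 on deviations from group means and r = 0.852 without ASAH− Etoh-Dox mouse 1 and ASAH+ Etoh mouse 4, the 2 mice farthest from the median of Acot1. For each pair the mice left out were the 2 farthest from the median of 1 of its genes, so they differ between pairs. Cyp4a10 and Cyp4a14 followed, with r = 0.829 (rho 0.907, permutation test, adjusted p = 0.00072), r = 0.796 within groups and r = 0.751 without ASAH+ Etoh-Dox mice 1 and 2, the farthest for Cyp4a10. These pairs alone passed with each of the 13 mice left out in turn, with r from 0.874 to 0.925 and from 0.808 to 0.879.

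The receptor passed with 1 target, Cpt1a. This pair had r = 0.725 (rho 0.676, permutation test, adjusted p = 0.0398), r = 0.857 within groups and r = 0.750 without ASAH− Etoh-Dox mouse 1 and ASAH+ Etoh mouse 1, the farthest for Ppara, where the adjusted p was 0.0565. The other pairs that passed were Cyp4a10 with Cyp4a31 (r = 0.740), Cyp4a31 with Acot1 (0.716), Cyp4a32 with Acot1 (0.706), Cyp4a14 with Cyp4a31 (0.683), Cyp4a10 with Acot1 (0.683) and Cyp4a31 with Cyp4a32 (0.667). Reads shared between the Cyp4a copies can couple their counts, and the pair Cyp4a14 with Cyp4a31 had r = 0.375 without ASAH+ Etoh-Dox mouse 2. With the 2 farthest mice of each pair left out 2 of the 9 pairs passed, Acot1 with Ehhadh and Cyp4a10 with Acot1, and by Spearman's rho 2 of 9, Acot1 with Ehhadh and Cyp4a10 with Cyp4a14. The other 7 of the 9 pairs each failed the test with at least 1 of the 13 mice left out. Pdk4 had r between -0.38 and 0.37 with the other 8 genes.

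**Figure D4:**
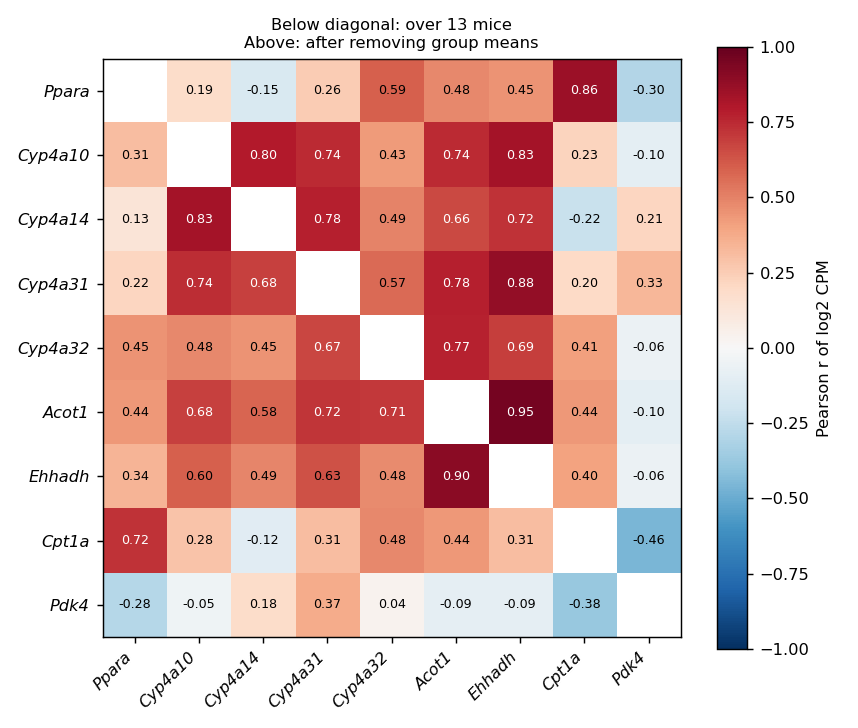
Pearson correlation of log2 CPM for each pair of the 9 genes, over the 13 mice below the diagonal and on deviations from group means above it, with the value printed in each cell. Below the diagonal Acot1 with Ehhadh (0.903) and Cyp4a10 with Cyp4a14 (0.829) are the highest and Pdk4 runs from -0.38 to 0.37, and above it Acot1 with Ehhadh (0.954) is the highest.

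**Figure D5:**
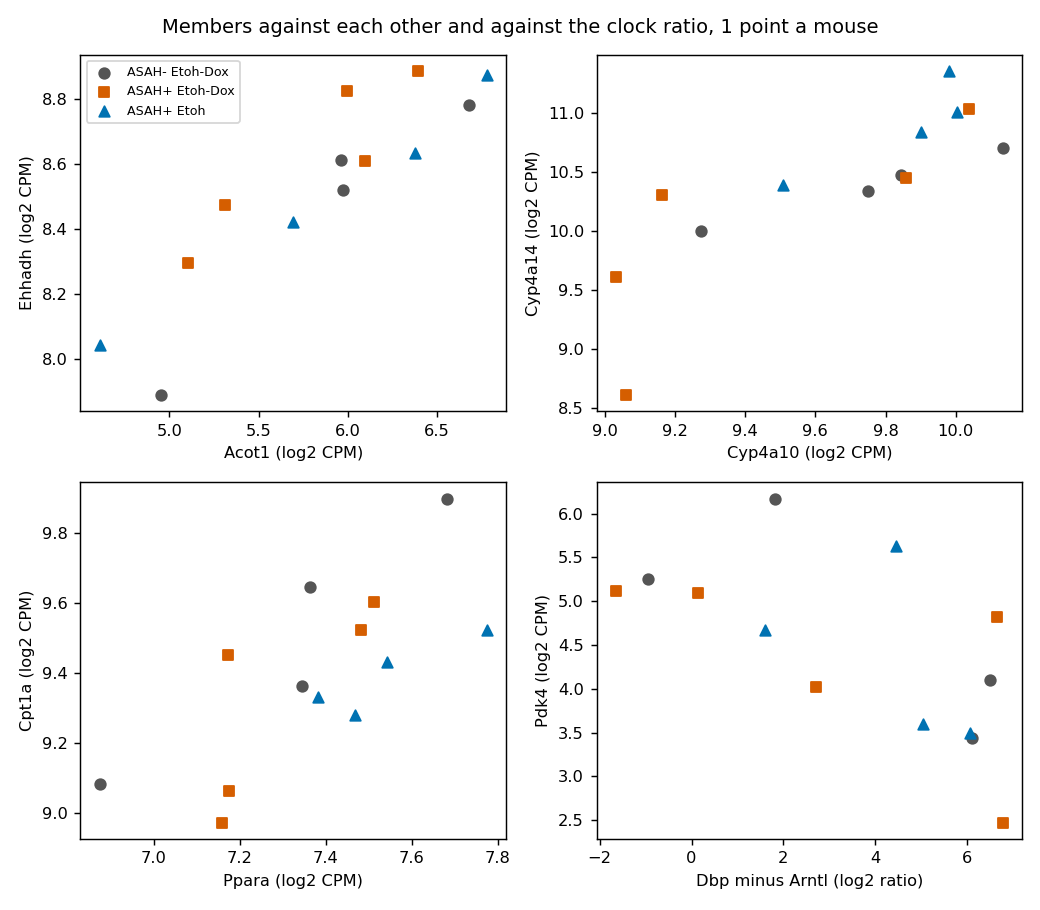
Log2 CPM of Acot1 with Ehhadh, Cyp4a10 with Cyp4a14 and Ppara with Cpt1a, and of Pdk4 against the log2 ratio of the clock genes Dbp and Arntl, with 1 point per mouse marked by group. The groups overlap on both axes of each panel, and Pdk4 runs against the ratio (r = -0.63).

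The ratio of clock genes differed widely between mice of 1 group and was compared with the members. Dbp, an output gene of the circadian clock, and Arntl, a core activator of the clock, peak at opposite times of day, and their log2 ratio was -0.96, 1.81, 6.11 and 6.49 in ASAH− Etoh-Dox mice, -1.64, 0.15, 2.70, 6.64 and 6.78 in ASAH+ Etoh-Dox mice and 1.60, 4.45, 5.05 and 6.06 in ASAH+ Etoh mice. The ratio thus ranged widely in every group. The lowest values, -1.64, -0.96 and 0.15, were all in Dox-fed mice, and the lowest in ASAH+ Etoh mice was 1.60. Over the 13 mice the ratio had r = 0.726 with Ppara (permutation test, Benjamini-Hochberg adjusted p = 0.0366 over the 9 members), r = 0.671 with Cpt1a (adjusted p = 0.0546) and r = -0.63 with Pdk4 (adjusted p = 0.0693). Spearman's rho with Ppara was 0.687 (permutation test, adjusted p = 0.0576). Without the 2 mice farthest from the median of the ratio the r with Ppara was 0.552, and within groups it was 0.737 (permutation test, adjusted p = 0.122), where it did not pass the threshold. The other 6 members had r of at most 0.42 in size. The time at which the livers were taken is not given in the sources used here, and its part in these values was not tested.

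As a description over the 13 mice, with no test, the genes most like each member among all 14317 were found by Pearson r. Among the genes nearest to Cyp4a14 were Dnajc5 (0.863) and the complement gene C3 (0.857), and among those nearest to Cyp4a10 were its neighbour Cyp4a14 (0.829) and Atxn10 (0.822). Ehhadh was most like Pkp2 (0.917), Acot1 (0.903) and the carnitine acetyltransferase Crat (0.894), and Acot1 most like the proteasome subunits Psmd12 (0.923) and Psmc2 (0.904) and the mitochondrial carnitine-acylcarnitine carrier Slc25a20 (0.917). Cyp4a31 was nearest to Cpt2, the inner-membrane partner of Cpt1a (0.811), to Zfp708 (0.792) and to Ctse (0.784). The neighbours of Ppara were Fam126b (0.925), Sec24a (0.913) and Slc16a7 (0.905), those of Cpt1a were Nop2 (0.921), Tpcn1 (0.912) and Jmjd4 (0.911), those of Cyp4a32 were Slc7a5 (0.904), Pknox1 (0.793) and Pmm2 (0.790), and those of Pdk4 were Cdc42 (0.933), Rhoa (0.897) and Mrpl10 (0.894).

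The rest of the PPARα pathway gave the same count of calls as the members. Of a list of 74 further genes, 68 were tested, and 0 of 68 passed the edgeR quasi-likelihood test (Benjamini-Hochberg adjusted) in any comparison. At an unadjusted p under 0.05, 4 of 68 passed between genotypes, 5 with and without Dox and 7 between the controls, beside 2.86%, 7.29% and 9.18% of all genes. The median log2 fold change of the 68 was -0.03, -0.04 and -0.01.

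Among the receptor's partners and coregulators, 18 of 18 were tested. The sister receptor Pparg, at 9.53 ± 1.11 (SD, n = 4), 11.9 ± 1.65 (SD, n = 5) and 9.63 ± 1.07 CPM (SD, n = 4), had a log2 fold change of 0.32 (SE 0.12) between genotypes and 0.31 (SE 0.12) with and without Dox. Ppard, the other sister receptor, had 0.40 (SE 0.15) with and without Dox and 0.39 (SE 0.16) between the controls. Both were low beside Ppara, at 1.37 to 6.74 CPM per kb in the group means against 46.4 to 54.9 for Ppara. At an unadjusted p under 0.05 the list had 1 of 18 between genotypes (Pparg), 2 of 18 with and without Dox (Pparg and Ppard) and 5 of 18 between the controls, beside 2.86%, 7.29% and 9.18% of all genes. Those between the controls were Ppard and Creb3l3 (0.23, SE 0.10), which were higher in ASAH− Etoh-Dox mice, and the corepressor Nrip1 (-0.36, SE 0.14), the coactivator Ncoa1 (-0.20, SE 0.09) and the Mediator subunit Med1 (-0.18, SE 0.08), which were lower.

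Of the peroxisomal targets, 15 of 16 were tested. Acaa1b, a thiolase of the same pathway as Ehhadh, had a log2 fold change of 0.44 (SE 0.20) with and without Dox, from 683 ± 84.0 (SD, n = 4) to 924 ± 182 CPM (SD, n = 5), and was the 1 peroxisomal gene with an unadjusted p under 0.05 there. Of the mitochondrial targets, 17 of 18 were tested, and the acyl-CoA dehydrogenase Acadl had a log2 fold change of -0.21 (SE 0.10) with and without Dox, with such a p. Values below 0 numbered 11 of 15 and 12 of 17 between genotypes, 10 of 15 and 13 of 17 with and without Dox, and 8 of 15 and 10 of 17 between the controls.

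Of the secreted, microsomal and other targets, 7 of 9 were tested. Malic enzyme, Me1, which makes NADPH, had a log2 fold change of 0.47 (SE 0.17) between genotypes and -0.45 (SE 0.17) between the controls, with ASAH− Etoh-Dox mice at 148 ± 16.3 CPM (SD, n = 4) below the 205 ± 55.7 (SD, n = 5) and 203 ± 18.4 CPM (SD, n = 4) of the ASAH+ groups. The fasting hormone Fgf21 was low, at 4.14 ± 1.79, 2.78 ± 1.23 and 2.16 ± 1.10 CPM (SD, n = 4, 5 and 4). Of the uptake and lipid droplet targets, 11 of 13 were tested, and the fatty acid transporter Slc27a1 had -0.40 (SE 0.14) between genotypes. DESeq2 called Me1 between the controls when fitted on those groups alone (-0.47, SE 0.11, adjusted p = 0.0117) and 1 lipid droplet gene, G0s2, an inhibitor of triglyceride lipase, between the controls (0.97, SE 0.28, adjusted p = 0.0651 on all mice) and, fitted on the groups alone, between genotypes (-0.89, SE 0.22, adjusted p = 0.0992). By edgeR's quasi-likelihood test neither was called.

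The gene families of the members were measured alongside. Of the Cyp4a family, the 4 members passed the count filter, and Cyp4a12a, Cyp4a12b, Cyp4a29 and Cyp4a30b did not, with group means of at most 0.0521 CPM. Of the Acot family 7 of 8 were tested, with 7 of 7 below 0 between genotypes, where Acot3 was furthest (-0.49, SE 0.56), 5 of 7 with and without Dox and 4 of 7 between the controls. In the Pdk and Cpt families 8 of 8 were tested, and the muscle form Cpt1b had -0.43 (SE 0.25) between genotypes and 0.45 (SE 0.27) between the controls. None of these passed edgeR's quasi-likelihood test at an unadjusted p under 0.05.

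Genes that report feeding by other routes gave no call either. Among 5 fasting genes outside PPARα, Igfbp1, a secreted binding protein that insulin represses, had a log2 fold change of -0.83 (SE 0.51) between genotypes and -0.77 (SE 0.51) with and without Dox, and 5 of 5 were below 0 between genotypes, 3 of 5 with and without Dox and 1 of 5 between the controls. Among 8 fed-state genes, Pnpla3, a lipid droplet gene under SREBP-1c, had 0.87 (SE 0.56) and 0.98 (SE 0.58). Of these 8 genes 7 were above 0 between genotypes, 4 with and without Dox and 2 between the controls, with medians of 0.25, -0.12 and -0.26. Among 15 clock genes, Npas2, a partner of Arntl, had 2.55 (SE 1.43) with and without Dox and 2.67 (SE 1.47) between the controls. All 3 sets had 0 genes at an unadjusted p under 0.05 in all 3 comparisons.

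None of the markers of the liver's cell types was called in any comparison. Summed endothelial markers ranged over 148 to 260 CPM in ASAH− Etoh-Dox, 128 to 179 CPM in ASAH+ Etoh-Dox and 174 to 236 CPM in ASAH+ Etoh mice. At an unadjusted p under 0.05, which 2.86% of all genes had between genotypes, 7.29% with and without Dox and 9.18% between the controls, 4 of 6 of them were lower in ASAH+ Etoh-Dox mice between genotypes, 5 of 6 with and without Dox, and 1 of 6 was lower between the controls. Stellate cell markers summed to 390 to 442, 330 to 374 and 319 to 387 CPM, and at that p 3 of 6 were lower between genotypes and 3 of 6 higher between the controls. Kupffer cell markers summed to 315 to 675, 235 to 449 and 245 to 313 CPM, and 4 of 6 were higher between the controls. Of the hepatocyte markers 1 of 7 had such a p in each comparison, Apoa1 between genotypes (-0.28, SE 0.12), Ass1 with and without Dox (-0.43, SE 0.18) and Apoa1 between the controls (0.54, SE 0.13). In whole-liver RNA fewer cells of a type and less RNA per cell cannot be told apart.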

How the data were processed

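Per the labels and the study's methods, libraries of whole-liver RNA were made with TruSeq Stranded mRNA kits, and the authors mapped reads with Salmon (version not given in the sources used here) to GENCODE M19 transcripts on GRCm38.p6 and summed transcripts by gene using tximport. What they deposited are estimated counts, all whole numbers (100%), without scaling or filtering. Reads that match several transcripts are divided by estimated abundance, which makes counts of close copies uncertain. Intervals and p-values do not cover this error.

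Gene names came from GENCODE M21, in which 53355 of the 53392 identifiers were found. The 9 members and all lists were chosen with earlier results of these data known. Replicates of 1 group differed by more than sampling noise (chi-square per degree of freedom 17.3 to 95.4 over 22 pairs), so all 13 mice were counted.

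Counts were tested in R 4.3.3 with edgeR 4.0.16: filterByExpr by group, TMM scaling, and a robust quasi-likelihood fit with a mean for each of 3 groups (13 mice). The 14317 p-values of a comparison were adjusted by Benjamini-Hochberg, with calls made under 0.1. The SE is the absolute log2 fold change over the root of F, and 95% intervals use the quasi-likelihood t distribution. Single genes were also tested by exact two-sided permutation of log2 CPM (prior count 2), with a smallest possible p of 0.00794 for 5 against 4 mice and 0.0286 for 4 against 4. Correlations and their permutation p-values were computed with numpy 2.4.6. Ranks and the Benjamini-Hochberg adjustment of these p-values came from scipy 1.17.1. The tests were tested on simulated data. Shared words were 31 bases long.

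Named genes were all 9 members, up to 3 genes per list and comparison with the smallest p where none was called, the 3 genes most like each member, Asah1, Dbp and Arntl, and any gene outside this rule was picked with its values known. A gene that the rule names is not reported here. Alternatives comprised DESeq2 1.42.0 (all mice, or the groups compared), limma-voom (limma 3.58.1), size factors of DESeq2, an edgeR fit of the compared groups alone, no filter on counts, a minimum of 10 counts per mouse, library totals without Asah1, a replicate block, the Dbp to Arntl ratio as a covariate, summed copies, and each mouse left out. The design text gives 4 mice per group, and 13 samples with 5 in the ASAH+ Etoh-Dox group were used.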

Additional observations from a re-analysis of the deposited data

How the results depend on the processing

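Over 24 alternatives, 0 of the 9 genes was called in any comparison. Of 633 log2 fold changes of the members, 602 kept their sign and 31 changed it, none of them past the threshold. Acot1 between the controls turned to 0.023 with limma-voom, 0.020 with the replicate block and 0.020 with the clock ratio, and with and without Dox to 0.010 with the clock ratio. Cpt1a with and without Dox turned to 0.0090 with the replicate block and 0.022 with the clock ratio, and Cyp4a31 and Cyp4a32 between the controls are counted at -0.065 with summed copies. That sum is 94.0 to 97.0% Cyp4a10, which had -0.08 by itself, so these 2 changes of sign follow from the construction and say nothing of the rare copies. With each mouse left out, the log2 fold change between genotypes ran from -0.38 to 0.16 for Acot1, -0.49 to 0.033 for Cyp4a14, -0.84 to 0.11 for Pdk4 and -0.16 to 0.10 for Ppara. With and without Dox it ran from -0.50 to 0.13 for Acot1, -0.12 to 0.030 for Cpt1a, -0.029 to 0.25 for Ehhadh and -0.30 to 0.55 for Pdk4. Between the controls it ran from -0.37 to 0.28 for Acot1, -0.013 to 0.24 for Cpt1a, -0.22 to 0.043 for Cyp4a10, -0.18 to 0.10 for Ehhadh and -0.17 to 1.09 for Pdk4. The other values kept their sign. Between genotypes Cyp4a10 ran from -0.45 to -0.15, Cyp4a31 from -0.62 to -0.32, Cyp4a32 from -0.46 to -0.23, Cpt1a from -0.30 to -0.038 and Ehhadh from 0.0013 to 0.26. With and without Dox Ppara ran from -0.30 to -0.16, Cyp4a10 from -0.55 to -0.28, Cyp4a14 from -1.05 to -0.51, Cyp4a31 from -0.30 to -0.049 and Cyp4a32 from -0.28 to -0.021. Between the controls Ppara ran from -0.34 to -0.093, Cyp4a14 from -0.70 to -0.37, Cyp4a31 from 0.15 to 0.42 and Cyp4a32 from 0.068 to 0.35. Over all genes, edgeR called 2 in each comparison. DESeq2 called 12, 95 and 150 in the first, the second and the third comparison on all mice, and 11, 113 and 168 on the groups compared. Between the controls the count was 1 with limma-voom, 1 with the clock ratio, 0 on the groups compared, 0 with the replicate block and 0 at an adjusted p under 0.05. Between genotypes it was 1 on the groups compared and 1 with the replicate block, and with no count filter it was 4 with and without Dox. With each mouse left out it ran from 1 to 2, 2 to 8 and 0 to 2. Of the 68 further genes, DESeq2 called 1 between the controls on all mice, and 1 between genotypes and 2 between the controls on the groups compared. Of the member pairs, 9 were correlated, 2 without the 2 farthest mice, 2 by Spearman's rho and 2 to 8 with each mouse left out. The causes of the other changes were not tested. Deviations of same-numbered mice had a mean r of -0.05 over 12 pairs (-0.26 to 0.19), beside 0.01 over 44 other pairs. The labels do not give cages or litters, so this does not settle what same-numbered mice shared. At an unadjusted p under 0.05 the block had 2 of 9 members with and without Dox, Cyp4a10 and Cyp4a14, both lower with Dox, beside 5.47% of all genes, and 0 of 9 in the other comparisons. With 4 or 5 mice a group, the spread of Pdk4, Acot1 and Cyp4a14 leaves changes of 2-fold within their intervals.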
